A study of Mus musculus with 24 samples.

Results

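Hcfc1, Tet1, Tet2, Tet3, Sin3a, Bap1, Asxl1 and Trak1 encode proteins known to bind O-GlcNAc transferase (OGT), to carry the sugar it attaches, or to belong to a complex that does. These 8 genes were chosen by name from that knowledge, out of 24421 gene symbols counted. The rule used no measured value, but it was set with earlier results of these data known. All 8 were among the 14693 genes kept by the filter on low counts. Trak1 stands apart by function: its product is a cytoplasmic adaptor for mitochondria and not a chromatin protein.

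OGT attaches O-linked N-acetylglucosamine to serines and threonines of nuclear and cytosolic proteins, and O-GlcNAcase (gene Mgea5 in the files, now Oga) removes it. HCF-1, the product of Hcfc1, both carries the sugar and is cut by OGT into chains that stay joined. TET dioxygenases oxidise 5-methylcytosine and bring OGT to chromatin, while SIN3A joins OGT to histone deacetylases and BAP1 with ASXL1 removes ubiquitin from histone H2A. In mouse macrophages and dendritic cells TET2 is known as a brake on Il6 late in the LPS response.

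Total RNA of macrophages grown from bone marrow (BMDMs) of C57BL/6J mice aged 12 weeks was sequenced in 24 libraries, 4 in each of 6 groups. OGT knockout (KO) and wild-type (WT) cells were left unstimulated (M0) or were treated for 12 hours, with bacterial lipopolysaccharide (LPS, 100 ng/ml) or with the cytokine IL-4 (10 ng/ml). Each library carries the number of its label code, 5 to 8 in KO and 1 to 4 in WT; no label ties these numbers to separate animals, and a p-value here covers the variation among libraries, which may be technical. The sources used here do not give the deleted part of Ogt or any Cre driver.

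Gene counts came to 63429271 to 94942464 in 21 libraries, but to 172771 in KO LPS library 7 and to 209368 and 201097 in WT LPS libraries 1 and 2. Among deep KO libraries of the same state, a chi-square of the counts per degree of freedom was 7.65 to 28 within the pairs 5 and 6 or 7 and 8, and 47 to 80.8 across them, so each KO result was also computed without either pair. Macrophage markers were present in every group, with none of 9 at 0; their summed level was 7460 to 9190 CPM (counts per 1000000 counts, after scaling) in KO and 11900 to 13600 CPM in WT at M0, 8730 to 10800 CPM in KO and 15600 to 16100 CPM in WT with LPS, and 5270 to 5570 CPM in KO and 5930 to 6570 CPM in WT with IL-4. Of the 9 macrophage markers, 4 were called lower in KO at M0, 6 lower and 2 higher with LPS, and 2 lower and 1 higher with IL-4. Lyz2, the lysozyme gene, was lower in all 3 states (-0.87, -1.17 and -0.46 on the log2 scale; adjusted p = 4.28e-09, 3.44e-11 and 2.86e-05), while Cd68 and Mertk were higher with LPS (0.41 and 0.65; adjusted p = 0.00457 and 9.96e-05). The sum of 6 stromal markers was 14500 to 19000 CPM in KO and 10100 to 11800 CPM in WT at M0, 16100 to 18500 CPM in KO and 11100 to 13900 CPM in WT with LPS, and 10600 to 13900 CPM in KO and 7210 to 7750 CPM in WT with IL-4. Of these 6 markers, 5, 5 and 6 were called higher in KO in the 3 states, and none was at 0. The sum of 5 endothelial markers was 24.1 to 71.8 CPM in KO and 14.6 to 19.3 CPM in WT at M0, and 84.9 to 126 CPM in KO and 20.6 to 48.2 CPM in WT with LPS, while it overlapped with IL-4. Of these 5 markers, 4, 2 and 3 were called higher in KO at M0, with LPS and with IL-4, and none lower. The 6 erythroid and megakaryocyte markers summed to 380 to 534 CPM in KO and 544 to 643 CPM in WT at M0, and to 341 to 411 CPM in KO and 416 to 464 CPM in WT with IL-4. Only 3 of these 6 passed the filter on low counts. Pf4 was called lower in KO at M0 (-0.36, adjusted p = 0.00956), while Klf1 and Itga2b were not called (0.47 and 0.21). None of the 3 was called with IL-4. The 3 mast cell and basophil markers summed to 9.02 to 14.4 CPM in KO and 17.2 to 21.7 CPM in WT at M0. Mcpt8, the 1 of these 3 that passed the filter, was called lower there (-0.73, adjusted p = 0.00284). The sums of neutrophil, dendritic cell and osteoclast markers overlapped between KO and WT in each state, though single markers were called: of 5 osteoclast markers 3 were lower in KO at M0, 2 lower with LPS and 1 lower and 1 higher with IL-4, and of 7 neutrophil markers 2 were higher at M0, 2 lower with LPS and 1 higher with IL-4. The T and NK or B cell markers summed to at most 1.63 CPM in any library. Markers also moved with stimulation. With IL-4 against M0 all 6 stromal markers were called lower in both genotypes (median log2 fold changes -0.70 in KO and -0.82 in WT). Of the 9 macrophage markers, 5 were then lower and 1 higher in KO, and 6 lower and 2 higher in WT. With LPS against M0, 3 stromal markers were called higher in KO and 2 in WT, and none lower. The part of these markers in the KO and WT differences and in the responses to stimulation below was not tested. Fewer cells of a type cannot be told apart from less RNA per cell.

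Ogt itself was lower in the libraries labelled KO. At M0 KO libraries 5 to 8 had 34.5, 34.6, 36.9 and 35.8 CPM, against 47.3, 51.3, 47.4 and 52.4 CPM for WT libraries 1 to 4. With LPS the KO libraries had 34.2, 37.6, 53.8 and 37 CPM and the WT libraries 56.7, 68, 55 and 57.2 CPM. With IL-4 the values were 34.8, 31.9, 33.6 and 32.8 CPM in KO and 49.2, 53.1, 56.9 and 58.2 CPM in WT. No KO value reached a WT value of the same state. On the log2 scale KO over WT (with standard errors, SE) was -0.49 ± 0.057 at M0, -0.63 ± 0.072 with LPS and -0.71 ± 0.057 with IL-4 (adjusted p = 1.01e-06, 4.22e-07 and 2.82e-09). These counts cover the whole gene, so they do not measure functional transcript. Mgea5 was also lower in KO, with log2 fold changes of -0.47, -0.35 and -0.47 (adjusted p = 1.08e-06, 0.00037 and 6.42e-07).

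In KO against WT cells, Hcfc1 had the smallest adjusted p of the 8 genes at M0 and with IL-4, where it was higher in KO by 1.43-fold and 1.37-fold. Sin3a was lower in KO in the same states, and Bap1 was higher in KO with LPS and IL-4. Tet2 was higher in KO with LPS. Of these calls only those of Hcfc1 held under every alternative run, as given below. Tet1, Tet3, Asxl1 and Trak1 were not called in any of the 3 states.

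At M0, 1 member was called higher and 1 lower (edgeR quasi-likelihood test, Benjamini-Hochberg adjusted p under 0.05 over all genes kept), beside 11.8% of all genes called higher, 10.5% called lower and 22.3% called in either direction. With LPS 2 members were called, both higher, beside 16.2% higher, 14.6% lower and 30.9% in either direction among all genes. With IL-4 2 were called higher and 1 lower, beside 17.9%, 18.2% and 36.1%. These shares lie near the background, so the counts are not a result about the members as a group. The 4 KO values lay wholly above the 4 WT values for 1 member at M0 and wholly below for 1, beside 13.5% and 13.6% of all genes. The same counts were 2 and 0 with LPS, beside 8.04% and 4.83%, and 2 and 1 with IL-4, beside 17.3% and 19.8%. The members' median log2 fold change was 0.10, 0.02 and 0.10 in the 3 states, beside 0.02, 0.01 and 0.01 over all genes.

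**Figure D1:**
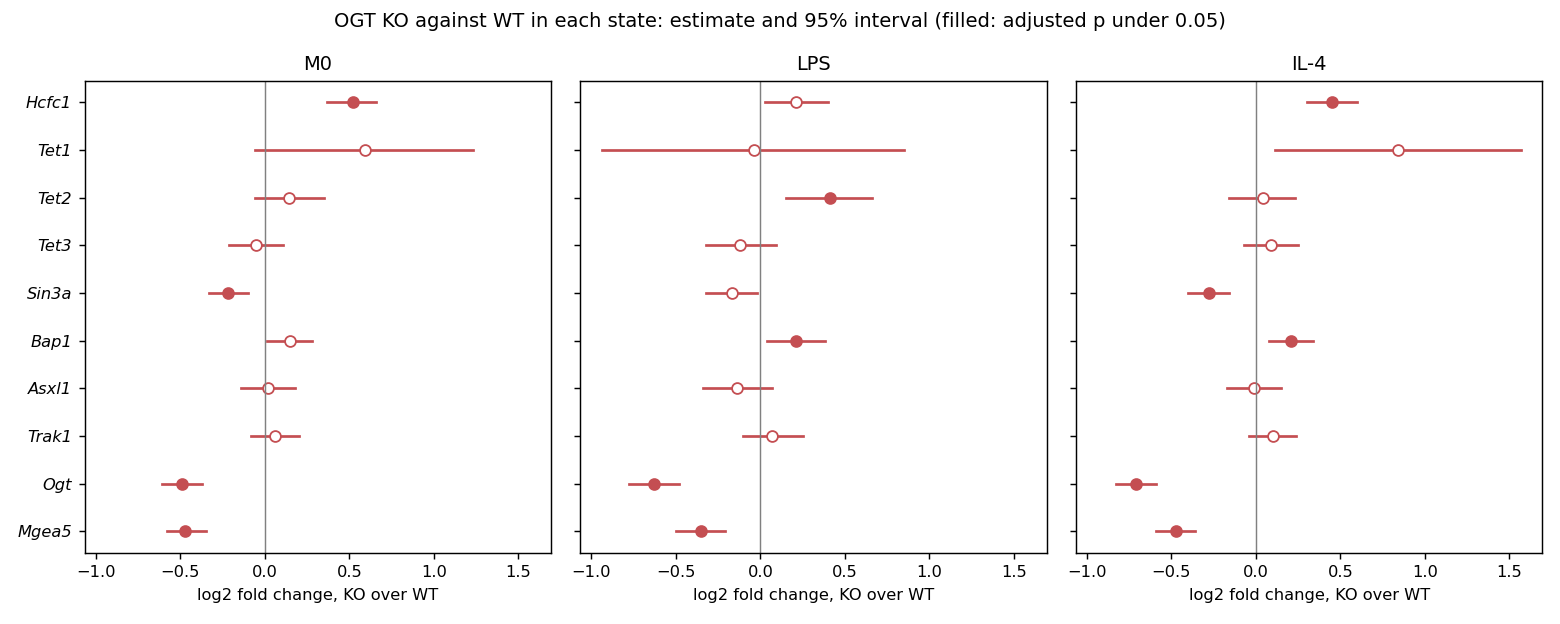
Log2 fold change of KO over WT for the 8 members, Ogt and Mgea5 at M0, with LPS and with IL-4 (points, edgeR estimates from 4 libraries a group; bars, 95% intervals; filled points, adjusted p under 0.05). Hcfc1 lies at 0.52 and 0.45 at M0 and with IL-4 but at 0.21 with LPS, Sin3a lies left of 0 in every panel, and Tet1, the gene with the fewest reads, has the widest bars.

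Hcfc1 lies on the minus strand of chromosome X, at 73942792 to 73966357 (GRCm38, GENCODE M21). Its product is the scaffold that joins DNA-binding factors to histone methyltransferases, acetyltransferases and BAP1. The start-site windows of Hcfc1 and of Sin3a are shown because these are the members whose levels differed between KO and WT in opposite directions. They are RefSeq windows of GRCm38.p6, running from 250 bases before the start site to 50 bases after it, 5′ to 3′ on the gene's strand. Capitals mark matches, on either strand, to motifs searched by their letters: CCGGAAG for ETS factors such as GABPA, CAANATGGC for YY1, ACTACA then TCC after any 2 bases for ZNF143 and THAP11, GGGA then CC after any 4 bases for NF-kB, TTC then GAA after any 4 bases for STAT6 and TGACGTCA for CRE factors. The Hcfc1 window is chrX:73966308-73966607, minus strand.
Hcfc1: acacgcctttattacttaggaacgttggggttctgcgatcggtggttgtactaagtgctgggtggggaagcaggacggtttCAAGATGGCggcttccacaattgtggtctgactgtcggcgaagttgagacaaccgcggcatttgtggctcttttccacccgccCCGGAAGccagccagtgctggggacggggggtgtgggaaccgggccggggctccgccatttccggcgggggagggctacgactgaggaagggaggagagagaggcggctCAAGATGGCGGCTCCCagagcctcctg
It held an ETS match at position -86 from the start site and YY1 matches at -169 and 24, and the second YY1 match overlaps an NF-kB match at 30. Of 32851 windows of this length, 8.86% held the ETS letters, 2.51% the YY1 letters and 20.7% the NF-kB letters. The window held 21 CpG dinucleotides, against a median of 7 over all windows.

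At M0 Hcfc1 stood at 155, 162, 161 and 153 CPM for KO libraries 5 to 8, against 117, 101, 110 and 113 CPM for WT libraries 1 to 4. The lowest KO library lay above the highest WT library, and KO libraries averaged 158 ± 4.07 CPM against 110 ± 6.78 CPM in WT (SD, n = 4 each). The log2 fold change was 0.52 ± 0.07 (SE; adjusted p = 7.96e-06). The gene ranked 177 by p among all genes tested in this comparison. With IL-4 it stood at 167, 178, 171 and 158 CPM for KO, against 126, 111, 132 and 124 CPM for WT, again without overlap. That difference was 0.45 ± 0.07 on the log2 scale (adjusted p = 2.35e-05). Both differences were called under every alternative run.

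With LPS Hcfc1 stood at 131, 144, 126 and 131 CPM for KO, against 87.7, 62.8, 119 and 123 CPM for WT. The groups did not overlap, but the 2 lowest WT values are the shallow libraries and rest on 17 and 12 counts. The deep libraries stood at 131, 144 and 131 CPM in KO and at 119 and 123 CPM in WT. The log2 fold change was 0.21 ± 0.086 (95% interval 0.03 to 0.40) and missed the threshold (adjusted p = 0.0607). It was 0.17 without the 3 shallow libraries (adjusted p = 0.087) and was called with RLE scaling factors (0.23, adjusted p = 0.0325) and without KO libraries 7 and 8 (0.22, adjusted p = 0.0473). The KO and WT difference with LPS set against that at M0 gave -0.30 ± 0.11 on the log2 scale (interaction, LPS minus M0; adjusted p = 0.0768). That interaction passed without the 3 shallow libraries (-0.33, adjusted p = 0.0208) and with the label number as a block (-0.28, adjusted p = 0.0159). It also passed without KO M0 library 5 or 8, WT M0 library 1 or 4, or WT LPS library 2 (-0.32 to -0.37, adjusted p = 0.0289 to 0.0489), so the call depends on these settings.

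Sin3a lies on the plus strand of chromosome 9, at 57072040 to 57128366, and encodes the scaffold of a corepressor that carries histone deacetylases. RefSeq gives windows for 2 start sites, chr9:57071790-57072089 and chr9:57076126-57076425, both on the plus strand.
Sin3a, first window: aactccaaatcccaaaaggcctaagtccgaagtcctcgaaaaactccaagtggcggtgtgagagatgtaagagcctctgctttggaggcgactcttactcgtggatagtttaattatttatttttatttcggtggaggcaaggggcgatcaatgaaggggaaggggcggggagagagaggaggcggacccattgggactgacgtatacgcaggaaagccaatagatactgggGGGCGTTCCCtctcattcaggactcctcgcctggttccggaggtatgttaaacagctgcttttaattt
Sin3a, second window: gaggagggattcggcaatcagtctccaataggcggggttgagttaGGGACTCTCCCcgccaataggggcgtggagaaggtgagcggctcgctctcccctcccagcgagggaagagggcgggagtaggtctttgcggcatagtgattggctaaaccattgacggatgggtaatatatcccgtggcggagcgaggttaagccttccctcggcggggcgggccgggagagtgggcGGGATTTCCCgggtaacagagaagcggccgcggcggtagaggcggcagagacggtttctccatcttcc
The first held 1 NF-kB match, at -18, and the second held matches at -205, -204 and -18, of which the first 2 overlap. These letters, present in 20.7% of all windows, stood in 7 of the 12 windows of the members, and those of STAT6, present in 6.95% of all windows, in 0 of the 12. The 12 windows held 50% to 81.3% G and C, against a median of 52.7% over all windows, and these counts were not tested.

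At M0 Sin3a stood at 40, 40.3, 40 and 36.7 CPM for KO, against 45.5, 43.8, 44 and 49 CPM for WT. With IL-4 it stood at 37.1, 37.7, 35.7 and 32.3 CPM for KO, against 43, 43.5, 43.3 and 43.7 CPM for WT. All KO libraries lay below all WT libraries in both states. KO over WT was -0.22 ± 0.056 at M0 and -0.28 ± 0.056 with IL-4 (SE; adjusted p = 0.00632 and 0.00036) on the log2 scale, so KO levels were 0.861 and 0.823 of WT levels. The M0 call was lost with DESeq2 (-0.21, adjusted p = 0.149) and with libraries summed in number pairs (-0.23, adjusted p = 0.153), and the IL-4 call with number pairs (-0.28, adjusted p = 0.0516). With LPS the deep libraries stood at 37.9, 39.9 and 37.3 CPM in KO and at 43.8 and 44.3 CPM in WT, while KO library 7 stood at 53.8 CPM on 9 counts and WT libraries 1 and 2 at 30.9 and 31.4 CPM on 6 counts each. The difference was -0.17 ± 0.071 (adjusted p = 0.0658), and -0.19 without the shallow libraries, which calls it (adjusted p = 0.0284).

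Bap1, on the plus strand of chromosome 14 at 31251450 to 31259944, encodes the catalytic subunit of the deubiquitinase that acts on histone H2A and binds HCF-1. It stood at 75.9, 81.7, 79.9 and 85.1 CPM for KO with IL-4, against 69.1, 69.4, 69.9 and 70.1 CPM for WT. The groups were fully apart, and the difference was 0.21 ± 0.063 on the log2 scale (adjusted p = 0.0102). It missed the threshold with DESeq2 (adjusted p = 0.117), with number pairs summed (adjusted p = 0.0663) and without KO library 8 (adjusted p = 0.0555).

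With LPS Bap1 stood at 75.9, 77.2, 144 and 81.6 CPM for KO, against 56.7, 73.2, 71.1 and 67.1 CPM for WT. KO library 7, a shallow one, was the highest, on 24 counts, and the deep KO libraries still lay above every WT library. The difference of 0.21 ± 0.08 (adjusted p = 0.0457) was lost without filtering (adjusted p = 0.0713), with DESeq2 (adjusted p = 0.163), with number pairs summed (adjusted p = 0.111), without KO libraries 7 and 8, and without KO library 8, WT library 1, WT library 3 or WT library 4 alone (adjusted p = 0.0508 to 0.193). At M0 Bap1 stood at 73.9, 78.1, 77.9 and 79.6 CPM for KO, against 68.3, 67.8, 76.9 and 66.8 CPM for WT. These groups overlapped through WT library 3, and the difference of 0.15 ± 0.063 was not called (adjusted p = 0.101).

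Asxl1, on the plus strand of chromosome 2 at 153345829 to 153404007, encodes the partner that activates BAP1. Its KO and WT levels overlapped at M0 (54.7 to 58.7 CPM in KO and 50.9 to 59.1 CPM in WT) and with IL-4 (45.7 to 50.7 CPM in KO and 46.5 to 52.2 CPM in WT). KO over WT was 0.02 and -0.01 there on the log2 scale, with 95% intervals of -0.14 to 0.18 and -0.17 to 0.15. With LPS the difference was -0.14 ± 0.098 (adjusted p = 0.302).

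Of the TET genes, Tet2 (minus strand of chromosome 3, 133463679 to 133545139) was the one called between KO and WT, in LPS. Its LPS values were 24.5, 27.3, 12 and 22.7 CPM for KO, against 25.8, 5.23, 17.1 and 20.3 CPM for WT. The groups overlapped because the shallow libraries, KO library 7 and WT libraries 1 and 2, gave 2, 5 and 1 counts. In the deep libraries the lowest KO value, 22.7 CPM, lay above the highest WT value, 20.3 CPM. The difference was 0.41 ± 0.12 (SE; adjusted p = 0.0126), and 0.42 without the shallow libraries (adjusted p = 0.0104). It was lost without KO libraries 5 and 6 (0.28, adjusted p = 0.126), without KO library 6 alone (0.34, adjusted p = 0.0555), without WT library 3 (0.32, adjusted p = 0.149) and with number pairs summed (0.39, adjusted p = 0.0931). At M0 Tet2 stood at 9.38 to 11 CPM in KO and 8.11 to 10.1 CPM in WT, and with IL-4 at 14 to 17.8 CPM in KO and 13.9 to 16.9 CPM in WT. Neither difference was called (0.14 ± 0.097 and 0.04 ± 0.095; adjusted p = 0.308 and 0.803).

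Tet1, on the minus strand of chromosome 10 at 62804570 to 62908996, was the lowest of the 8 genes. It stood at 0.979, 0.814, 1.45 and 1.3 CPM for KO at M0, against 0.926, 0.733, 0.758 and 0.6 CPM for WT. With IL-4 it stood at 0.501, 0.207, 0.564 and 0.67 CPM for KO, against 0.357, 0.196, 0.389 and 0.128 CPM for WT. The groups overlapped in both states, and the differences of 0.59 ± 0.31 and 0.84 ± 0.35 were not called (adjusted p = 0.179 and 0.0612). KO libraries 7 and 8 were the higher pair in both states, and without libraries 5 and 6 both differences were called (0.84 and 1.16; adjusted p = 0.0168 and 0.00403), as was that with IL-4 without KO library 6 or WT library 3 (1.07 and 1.06; adjusted p = 0.0136 and 0.034). The 3 shallow LPS libraries gave 0 counts, which allows up to 15.5 to 17.9 CPM, above every deep value.

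Tet3, on the minus strand of chromosome 6 at 83362373 to 83459084, showed the same division of the KO libraries with the order reversed. At M0 it stood at 67 and 70 CPM in KO libraries 5 and 6 and at 57.6 and 57.5 CPM in KO libraries 7 and 8, against 66.8, 58.1, 67.2 and 69.5 CPM in WT. With IL-4 KO libraries 5 and 6 stood at 95.8 and 101 CPM and libraries 7 and 8 at 86 and 86.6 CPM, against 85.8, 78, 93.2 and 90.5 CPM in WT. The KO and WT differences of -0.05 ± 0.077 and 0.09 ± 0.077 were not called (adjusted p = 0.667 and 0.387). Without KO libraries 5 and 6 Tet3 was called lower in KO at M0 (-0.22, adjusted p = 0.0234) and with LPS (-0.30, adjusted p = 0.028), and without libraries 7 and 8 it was called higher with IL-4 (0.18, adjusted p = 0.0416).

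Trak1, on the plus strand of chromosome 9 at 121297502 to 121474918, encodes an adaptor that ties mitochondria to kinesin and is modified by OGT. Its KO and WT values overlapped in every state. The 95% intervals of the log2 fold change were -0.08 to 0.20 at M0, -0.10 to 0.25 with LPS and -0.04 to 0.24 with IL-4 (adjusted p = 0.561, 0.549 and 0.231).

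**Figure D2:**
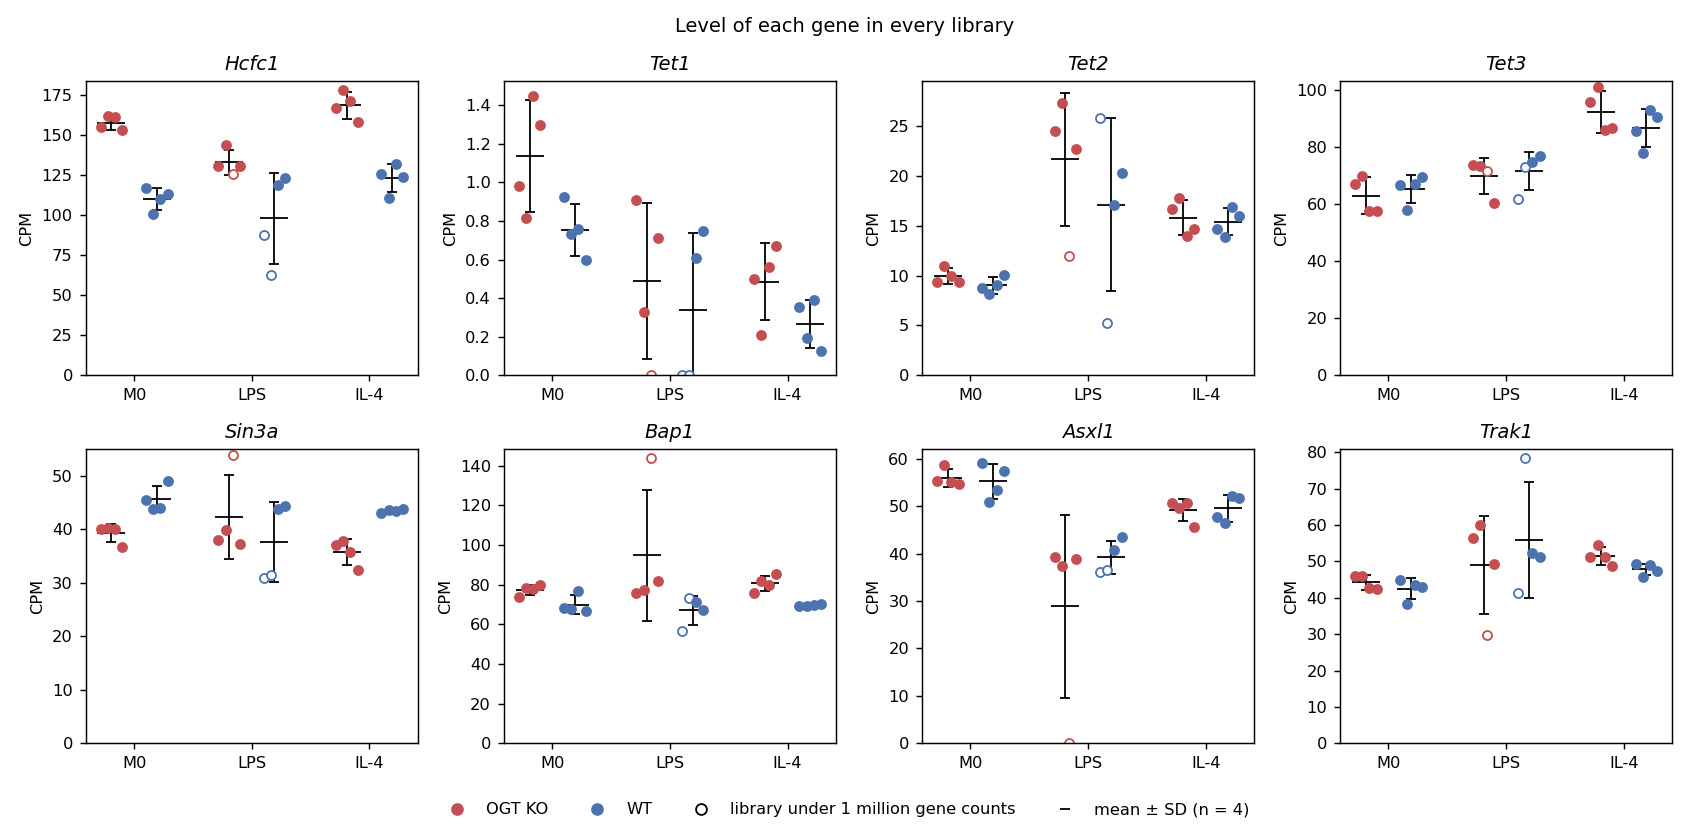
CPM of each member in all 24 libraries, KO left of WT in each state (points, libraries; open points, the 3 libraries under 1000000 gene counts; bars, mean ± SD, n = 4). Every KO value of Hcfc1 lies above every WT value of its state (with LPS the difference was not called), Tet2 is highest with LPS, Tet3 is highest with IL-4, and the open points set most of the spread of the LPS groups.

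Stimulation moved the TET genes in different directions. Tet2 rose with both agents in both genotypes, with LPS by 2.48-fold in KO and 2.07-fold in WT. Tet3 rose and Tet1 fell with IL-4 in both genotypes. Asxl1 fell with LPS in both genotypes. Sin3a and Bap1 were not called with LPS in either genotype, but Sin3a was called lower under another scaling or with 1 M0 library left out.

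In KO cells LPS against M0 gave 2 members higher and 3 lower, beside 31.2% and 36% of all genes and 67.3% in either direction. In WT cells it gave 2 higher and 1 lower, beside 29.4% and 28.3% of all genes and 57.7% in either direction. IL-4 against M0 gave 3 higher and 3 lower in KO, beside 26%, 25.2% and 51.3%, and 3 higher and 1 lower in WT, beside 30.9%, 29.3% and 60.1%. The stimulated libraries lay wholly above M0 for 1 member and wholly below for 2 with LPS in KO (19.2% and 28.5% of all genes), and for 0 and 1 in WT (15.4% and 23.5%). With IL-4 these counts were 3 and 2 in KO (25.2% and 21.6%) and 3 and 2 in WT (29.8% and 27.7%). A call after stimulation was thus common among all genes and is not particular to the members. The median log2 fold change of the members was 0.01 in KO and 0.03 in WT with LPS, beside -0.07 and -0.01 over all genes, and 0.08 in each genotype with IL-4, beside -0.02 and -0.01.

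The scale of the LPS comparisons depends on the scaling. With RLE factors, or with any M0 or IL-4 library left out, the median of all genes moved by -0.09 to -0.17 on the log2 scale in KO and by -0.10 to -0.13 in WT. The share of calls that were higher was then 34.2% to 39.9% in KO, where TMM factors over all 24 libraries gave 46.4%, and 38.1% to 41.4% in WT, where they gave 51%. LPS changes of that size therefore depend on the scaling. For IL-4 against M0 the same alternatives moved the median by -0.05 to -0.06 in each genotype. The share of calls that were higher was then 40.9% to 43% in KO, where the main fit gave 50.8%. In WT it was 43.8% to 44.9%, where the main fit gave 51.3%. Small IL-4 changes thus depend on the scaling too. A fit without 1 such library carries this shift as well as the loss of that library, and these cannot be told apart. For KO against WT with LPS, leaving out any M0 or IL-4 library moved the median of all genes by -0.05. The share of calls that were higher was then 41.1% to 41.6%, where the main fit gave 52.6%. RLE factors moved that median by 0.02 (57% of calls higher). The single libraries left out above for that comparison were LPS libraries only, so its members are not shown under the shift of -0.05.

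The start-site windows of Tet2 and Asxl1, which were called higher and lower with LPS in both genotypes under every alternative run, are chr3:133544341-133544640 on the minus strand and chr2:153345580-153345879 on the plus strand.
Tet2: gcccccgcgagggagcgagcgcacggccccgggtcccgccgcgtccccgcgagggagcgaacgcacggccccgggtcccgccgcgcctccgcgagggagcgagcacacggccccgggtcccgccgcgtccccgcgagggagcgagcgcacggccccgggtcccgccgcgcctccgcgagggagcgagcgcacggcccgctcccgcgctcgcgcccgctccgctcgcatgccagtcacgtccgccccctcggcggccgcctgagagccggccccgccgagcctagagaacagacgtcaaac
Asxl1: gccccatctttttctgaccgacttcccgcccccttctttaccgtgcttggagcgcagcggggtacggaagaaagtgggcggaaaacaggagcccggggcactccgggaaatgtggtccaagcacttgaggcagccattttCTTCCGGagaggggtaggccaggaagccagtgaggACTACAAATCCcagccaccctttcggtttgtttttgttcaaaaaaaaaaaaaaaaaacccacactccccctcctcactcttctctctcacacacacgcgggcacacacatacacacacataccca
The Tet2 window held 57 CpG dinucleotides and 81.3% G and C, against a median of 52.7% over all windows, and none of the letters searched. The Asxl1 window held an ETS match at -110 and a ZNF143 and THAP11 match at -75, letters found in 1.98% of all windows.

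Tet2 encodes the dioxygenase that lacks a CXXC domain of its own. Its LPS levels in deep libraries, 24.5, 27.3 and 22.7 CPM in KO and 17.1 and 20.3 CPM in WT, lay above every M0 library, at 9.38 to 11 CPM in KO and 8.11 to 10.1 CPM in WT. Over M0 the log2 changes were 1.31 ± 0.10 in KO and 1.05 ± 0.11 in WT (SE; adjusted p = 1.35e-11 and 1.19e-08), and both were called under all alternatives run, at 1.11 to 1.41 in KO and 0.87 to 1.16 in WT with 1 library left out. With IL-4 Tet2 stood at 16.7, 17.8, 14 and 14.7 CPM in KO and at 14.7, 13.9, 16.9 and 16 CPM in WT, above M0 without overlap. The rises were 0.66 ± 0.096 in KO and 0.77 ± 0.096 in WT (adjusted p = 2.47e-06 and 1.7e-07). The KO response to LPS minus the WT response was 0.26 ± 0.16 and not called (adjusted p = 0.3), but it was called with the label number as a block (0.33, adjusted p = 0.0429).

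Tet3 encodes a TET enzyme that is also known from the oocyte. With IL-4 its 4 KO libraries, at 86 to 101 CPM, lay above the KO M0 libraries, at 57.5 to 70 CPM, and its 4 WT libraries, at 78 to 93.2 CPM, above the WT M0 libraries, at 58.1 to 69.5 CPM. The log2 fold changes were 0.55 ± 0.077 in KO and 0.41 ± 0.077 in WT (adjusted p = 1.57e-06 and 5.91e-05). With LPS Tet3 stood at 73.9, 73.6, 71.8 and 60.6 CPM in KO and at 61.9, 73.2, 74.9 and 76.8 CPM in WT, and overlapped M0. Those changes of 0.14 ± 0.083 in KO and 0.20 ± 0.092 in WT were not called (adjusted p = 0.141 and 0.0618) and ran from -0.07 to 0.27 in KO and from 0.02 to 0.22 in WT over the alternatives. The fit with the label number as a block called both (0.10 in KO and 0.14 in WT; adjusted p = 0.0427 and 0.023), and the KO change was called without KO LPS library 8 (0.27, adjusted p = 0.0092).

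Tet1, which encodes a TET enzyme with a CXXC domain, fell with IL-4. Its IL-4 values of 0.207 to 0.67 CPM in KO lay below the KO M0 values of 0.814 to 1.45 CPM, and those of 0.128 to 0.389 CPM in WT below the WT M0 values of 0.6 to 0.926 CPM. The log2 fold changes were -1.21 ± 0.32 in KO and -1.47 ± 0.34 in WT (adjusted p = 0.00241 and 0.000619). The KO call was lost with DESeq2 (adjusted p = 0.0519). With LPS the KO change of -0.80 ± 0.35 was called (adjusted p = 0.0457) and the WT change of -0.17 ± 0.40 was not (adjusted p = 0.743), and the difference between them was not called (-0.63 ± 0.52, adjusted p = 0.487). The KO call was lost with KO LPS library 6, 7 or 8 left out (-0.44, -0.79 and -0.82; adjusted p = 0.292, 0.0529 and 0.077) and without the 3 shallow libraries (-0.75, adjusted p = 0.0781). It was also lost with DESeq2, without KO libraries 5 and 6, without 7 and 8, and with number pairs summed (-0.85, -0.90, -0.52 and -0.75; adjusted p = 0.221, 0.0645, 0.291 and 0.0698).

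Asxl1 stood at 39.2, 37.4, 0 and 38.9 CPM in KO with LPS, against 55.4, 58.7, 55 and 54.7 CPM in KO at M0. The 0 is KO library 7, in which 0 counts allow up to 17.9 CPM. In WT it stood at 36.1, 36.6, 40.8 and 43.4 CPM with LPS, against 59.1, 50.9, 53.3 and 57.5 CPM at M0. No LPS library of either genotype reached an M0 library of its genotype. Its changes were -0.56 ± 0.083 in KO and -0.40 ± 0.094 in WT (SE; adjusted p = 1.74e-06 and 0.000673). Both were called in every alternative run, and without the shallow libraries they were -0.50 in KO and -0.38 in WT. With IL-4 the change was -0.19 ± 0.076 in KO (adjusted p = 0.0433) and -0.16 ± 0.076 in WT (adjusted p = 0.082). The KO call was lost with DESeq2, without filtering, without KO libraries 5 and 6 and with number pairs summed (adjusted p = 0.172, 0.0556, 0.165 and 0.0822). The WT change was called with RLE factors (-0.22, adjusted p = 0.0131), without the shallow libraries (-0.17, adjusted p = 0.00716), with the block (-0.15, adjusted p = 0.0278) and in 6 of the 8 fits that left out 1 WT library (-0.19 to -0.25).

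Trak1 stood at 56.5, 60 and 49.3 CPM in the deep KO LPS libraries, above 42.3 to 45.9 CPM in KO at M0, and at 52.2 and 51.2 CPM in the deep WT LPS libraries, above 38.3 to 45 CPM in WT at M0. The log2 fold changes were 0.31 ± 0.071 in KO and 0.30 ± 0.080 in WT (adjusted p = 0.000438 and 0.00253). Both were lost with DESeq2 (0.22 in KO and 0.21 in WT; adjusted p = 0.0605 and 0.14). Without any 1 KO M0 library the KO change was 0.12 to 0.16 and was lost, and the WT change was lost without WT M0 library 2, 3 or 4 (0.12, 0.17 and 0.17). With IL-4 the libraries stood at 48.7 to 54.6 CPM in KO and 45.8 to 49.3 CPM in WT, above M0 without overlap. Those changes of 0.22 ± 0.067 in KO and 0.17 ± 0.067 in WT (adjusted p = 0.00838 and 0.0282) were lost with DESeq2 (adjusted p = 0.206 and 0.379) and with number pairs summed (adjusted p = 0.0861 and 0.17). The KO call was also lost without KO M0 library 7 or 8 or KO IL-4 library 5, 6 or 7 (0.14 to 0.17), and the WT call with RLE factors (0.11, adjusted p = 0.163) and with any 1 WT M0 or IL-4 library left out (0.07 to 0.15). Leaving out any M0 or IL-4 library also shifted the median of all genes, as given above, and the part of that shift in these losses was not tested.

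Hcfc1 fell with LPS in KO, with 126 to 144 CPM with LPS against 153 to 162 CPM at M0 and no overlap. The change was -0.22 ± 0.075 (adjusted p = 0.0103). It was lost without KO LPS library 5 or 8 (-0.16 each; adjusted p = 0.109 and 0.0932), without KO libraries 5 and 6 (-0.22, adjusted p = 0.101) and with number pairs summed (-0.23, adjusted p = 0.086). In WT it was 0.08 ± 0.082 (-0.09 to 0.15 over the alternatives) and not called (adjusted p = 0.435). With IL-4 Hcfc1 changed by 0.09 ± 0.07 in KO and 0.16 ± 0.07 in WT (adjusted p = 0.266 and 0.0509), and the WT change was called without the shallow libraries (0.14, adjusted p = 0.0337) and with the label number as a block (0.16, adjusted p = 0.00496).

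Sin3a changed with IL-4 by -0.14 ± 0.056 in KO, which was called (adjusted p = 0.0433), and by -0.07 ± 0.056 in WT, which was not (adjusted p = 0.281). The KO call was lost with DESeq2, without filtering, without KO libraries 5 and 6, without 7 and 8, and with number pairs summed (adjusted p = 0.0967, 0.0721, 0.0916, 0.188 and 0.272). The WT change was called with RLE factors (-0.14, adjusted p = 0.0388) and without WT M0 library 2 or 3 (-0.15 each; adjusted p = 0.0373 and 0.0408). With LPS the changes of -0.03 ± 0.061 in KO and -0.07 ± 0.067 in WT were not called, but each moved to -0.18 to -0.23 in KO without any 1 KO M0 library, and to -0.20 to -0.22 in WT without WT M0 library 1, 2 or 3, and was then called. The WT change was also called with RLE factors. Bap1 was called in none of the 4 comparisons, with changes between -0.02 and 0.06 (adjusted p = 0.445 to 0.933), and over the alternatives its LPS changes ran from -0.14 to 0.15 in KO and from -0.17 to 0.02 in WT, uncalled throughout.

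**Figure D3:**
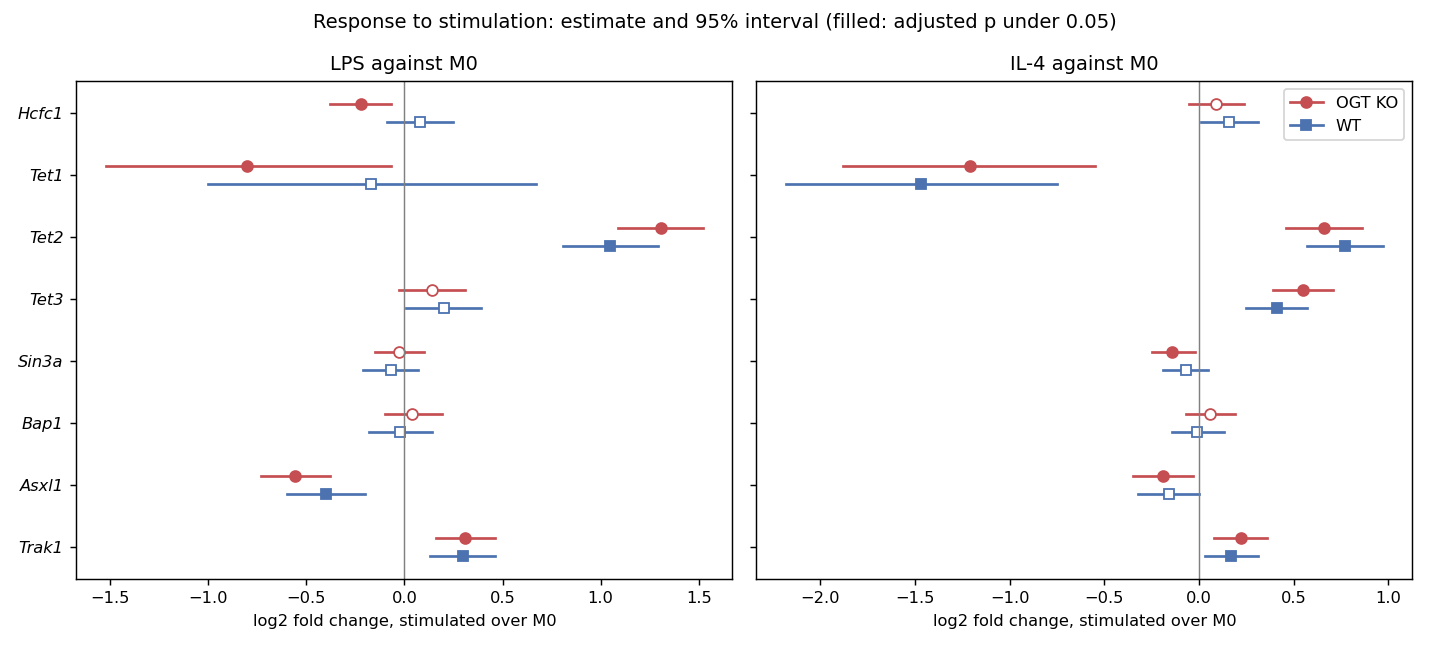
Log2 fold change of LPS over M0 and of IL-4 over M0 for the 8 members, KO circles above WT squares (edgeR estimates, 4 libraries a group; bars, 95% intervals; filled, adjusted p under 0.05). Tet2 lies furthest right with LPS, at 1.31 in KO and 1.05 in WT, Tet1 furthest left with IL-4, at -1.21 in KO and -1.47 in WT, and the KO and WT intervals of each gene overlap.

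For none of the 8 members was the response to either agent called different between KO and WT by the interaction test of edgeR, where 11.4% of all genes were called for LPS (6.62% higher and 4.79% lower) and 1.14% for IL-4 (0.47% higher and 0.667% lower). The lowest adjusted p for LPS was that of Hcfc1, at 0.0768, and for IL-4 that of Tet3, at 0.621 (0.14 ± 0.11). Before adjustment edgeR gave Hcfc1 with LPS a p of 0.0114 and every other member, for either agent, a p above 0.05; DESeq2 called none of those it gave an adjusted p.

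Levels per kilobase of exon, in CPM per kb over the union of GENCODE M21 exons, put Hcfc1 first in KO at M0, at 18.9 ± 0.487 (SD, n = 4), and Bap1 next at 16.5 ± 0.518. In WT at M0 Bap1 was first, at 14.9 ± 0.994, and Hcfc1 next at 13.2 ± 0.811, and their spreads touched. Asxl1 and Sin3a followed, at 7.51 ± 0.25 and 7.29 ± 0.311 in KO, a gap within their spread, and at 7.42 ± 0.506 and 8.47 ± 0.448 in WT, with Sin3a higher. Tet3 and Trak1 came next, at 3.77 ± 0.385 and 3.52 ± 0.157 in KO and 3.92 ± 0.299 and 3.38 ± 0.231 in WT, and their spreads touched in KO. Tet2, at 0.59 ± 0.0453 in KO and 0.534 ± 0.0492 in WT, and Tet1, at 0.0736 ± 0.0189 in KO and 0.0488 ± 0.00866 in WT, were the lowest of the 8. Tet3 was thus the most abundant TET transcript per length in these cultures at M0, and the deep libraries kept Tet3, Tet2 and Tet1 in this order with LPS (4.16, 1.47 and 0.0421 in KO; 4.54, 1.11 and 0.044 in WT) and with IL-4 (5.53, 0.935 and 0.0314 in KO; 5.2, 0.912 and 0.0173 in WT).

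Genes with the most similar pattern were taken by Pearson correlation of log2 CPM over the 21 deep libraries, which share groups and scaling, so the values describe a shape over 6 groups. For Tet2 these were Clic4 (r = 0.986), Rgl1 (0.976) and Irf2 (0.976), for Asxl1 Phf2 (0.964), Vgll4 (0.964) and Tgfbrap1 (0.96), and for Tet3 Wdfy2 (0.94), Ankrd55 (0.933) and Itsn2 (0.922). For Trak1 they were Aff1 (0.923) and Plekho2 (0.923), and for Sin3a Pnpla6 (0.917) and Mgea5 (0.912). Mgea5 encodes O-GlcNAcase. Hcfc1, Tet1 and Bap1 had lower best values: Trmt10a (0.888), Lyst (0.876) and Cbr2 (0.876) for Hcfc1, Syde1 (0.878), Ptk7 (0.877) and Gabbr1 (0.868) for Tet1, and Arhgap29 (0.873), Cd22 (0.847) and Serf1 (0.839) for Bap1. The candidates were 10279 kept genes averaging at least 5 CPM.

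The partners of the members, in 6 lists, moved in both directions in KO against WT. Their counts stand beside 11.8% of all genes called higher and 10.5% lower at M0, 16.2% and 14.6% with LPS, and 17.9% and 18.2% with IL-4, and no list was tested against these shares. Of the 34 calls named below, DESeq2 lost 13, number pairs summed 17 and leaving out some single library 9. Of 24 partners of HCF-1, 2 were higher and 1 lower at M0, 4 and 7 with LPS, and 3 and 7 with IL-4, and the list's median log2 fold changes were -0.02, -0.15 and -0.06. Zfp143, whose factor brings HCF-1 to promoters, was higher at M0 and with IL-4 (0.31 ± 0.067 and 0.27 ± 0.067; adjusted p = 0.00188 and 0.00289). Of the NSL acetyltransferase complex, Kansl3 was higher with LPS (0.59 ± 0.081, adjusted p = 4.92e-06) and Phf20 at M0 (0.21 ± 0.065, adjusted p = 0.0199). Msl1, of the related MSL complex, was lower with LPS (-0.50 ± 0.082, adjusted p = 4.46e-05), and Wdr5, a core subunit of the H3K4 methyltransferases, lower with IL-4 (-0.23 ± 0.055, adjusted p = 0.00211). The calls of Zfp143, Phf20 and Wdr5 were lost with DESeq2 and with number pairs summed. That of Phf20 was also lost without KO libraries 5 and 6 and with any of 5 single libraries left out.

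Of 17 genes of TET and DNA methylation tested out of 20, 4 were higher and 1 lower at M0, 3 and 3 with LPS, and 6 and 5 with IL-4 (medians 0.04, 0.12 and 0.04). Gadd45b, a stress-induced gene tied to DNA demethylation, was higher in KO in all 3 states, by 0.83 ± 0.091, 0.77 ± 0.11 and 0.63 ± 0.091 (adjusted p = 4.24e-07, 7.62e-06 and 9.3e-06). Cxxc5, whose CXXC protein binds TET2, was higher at M0 (0.56 ± 0.11, adjusted p = 0.000726), and Mbd1, a methyl-CpG reader, with LPS (0.43 ± 0.066, adjusted p = 1.95e-05). The Cxxc5 call was lost with number pairs summed. Uhrf1, which guides DNMT1 to newly copied DNA, was lower in KO with IL-4 (-0.65 ± 0.068, adjusted p = 1.29e-07), and its IL-4 response was the 1 partner response in the 6 lists called different between genotypes for IL-4 (interaction -0.43, adjusted p = 0.0289). That call was lost with DESeq2, with number pairs summed and with any of 10 single libraries left out.

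Of 21 genes of the SIN3 and HDAC complex, 1 was higher and 1 lower at M0, 3 and 2 with LPS, and 4 and 3 with IL-4 (medians -0.02, 0.04 and -0.03). Sap18 was higher and Ing1 lower at M0 (0.29 ± 0.079 and -0.19 ± 0.06; adjusted p = 0.0091 and 0.0222). The histone chaperone genes Rbbp4 and Rbbp7 were lower with IL-4 (-0.26 ± 0.056 and -0.24 ± 0.053; adjusted p = 0.00088 and 0.000943), and with LPS Arid4a was higher and Sap130 lower (0.34 ± 0.08 and -0.31 ± 0.083; adjusted p = 0.00184 and 0.00571). The calls of Sap18, Ing1, Rbbp4 and Rbbp7 were lost with number pairs summed, those of Sap18 and Ing1 also with DESeq2. Leaving out WT M0 library 4 lost Sap18, WT M0 library 3 Ing1, and WT LPS library 3 or 4 Sap130.

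Of 21 genes of BAP1 and Polycomb complexes, 1 was higher and 1 lower at M0, 2 and 5 with LPS, and 3 and 5 with IL-4 (medians -0.03, 0.03 and -0.00). L3mbtl2, a subunit of a variant Polycomb repressive complex, was lower in KO in all 3 states, at -0.51 ± 0.073, -1.02 ± 0.095 and -0.63 ± 0.072 on the log2 scale (adjusted p = 1.66e-05, 1.99e-08 and 5.44e-07), and the difference was larger with LPS than at M0 (interaction -0.52, adjusted p = 0.00565; lost with number pairs summed). Asxl2, the paralogue of Asxl1, was higher at M0 (0.23 ± 0.08, adjusted p = 0.039), a call lost with DESeq2, number pairs summed, without the shallow libraries and without KO libraries 5 and 6. The Asxl2 call was also lost with any of 5 single libraries left out. Foxk2, whose factor brings BAP1 to DNA, was lower with LPS (-0.36 ± 0.068, adjusted p = 0.000251), and Ezh2, the methyltransferase of Polycomb repressive complex PRC2, with IL-4 (-0.44 ± 0.075, adjusted p = 6.79e-05). The Ezh2 call was lost with DESeq2.

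Of 14 genes of mitochondrial transport tested out of 15, 1 was called at M0, higher in KO, 5 were higher and 3 lower with LPS, and 2 were called with IL-4, both higher (medians -0.02, 0.00 and 0.01). Mfn2, a mitofusin, was higher in KO in all 3 states (0.30 ± 0.056, 0.40 ± 0.07 and 0.32 ± 0.055; adjusted p = 0.000349, 0.000105 and 8.86e-05). Klc2, a kinesin light chain, was lower with LPS (-0.56 ± 0.091, adjusted p = 4.2e-05), and Kif5c, a kinesin heavy chain, higher with IL-4 (0.44 ± 0.16, adjusted p = 0.0331), a call lost with DESeq2, with number pairs summed and without KO libraries 5 and 6. The Kif5c call was also lost with any of 5 single libraries left out. Of 10 other chromatin proteins reported as OGT targets, 2 were called at M0, both higher in KO, 1 with LPS, lower, and 4 higher and 2 lower with IL-4 (medians 0.08, 0.02 and 0.09). Sirt1, a deacetylase, was higher at M0 and with IL-4 (0.25 ± 0.074 and 0.36 ± 0.074; adjusted p = 0.0175 and 5e-04), Kdm1a, a histone demethylase, at M0 (0.17 ± 0.05, adjusted p = 0.0181), Carm1 was lower with LPS (-0.27 ± 0.095, adjusted p = 0.0332) and Usp7 with IL-4 (-0.20 ± 0.05, adjusted p = 0.00311). The calls of Carm1, of Kdm1a and of Sirt1 at M0 were lost with DESeq2, with number pairs summed and without several single libraries. Those of Sirt1 and Usp7 with IL-4 and of Mfn2 at M0 were lost with number pairs summed, and that of Sirt1 with IL-4 also with DESeq2.

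**Figure D4:**
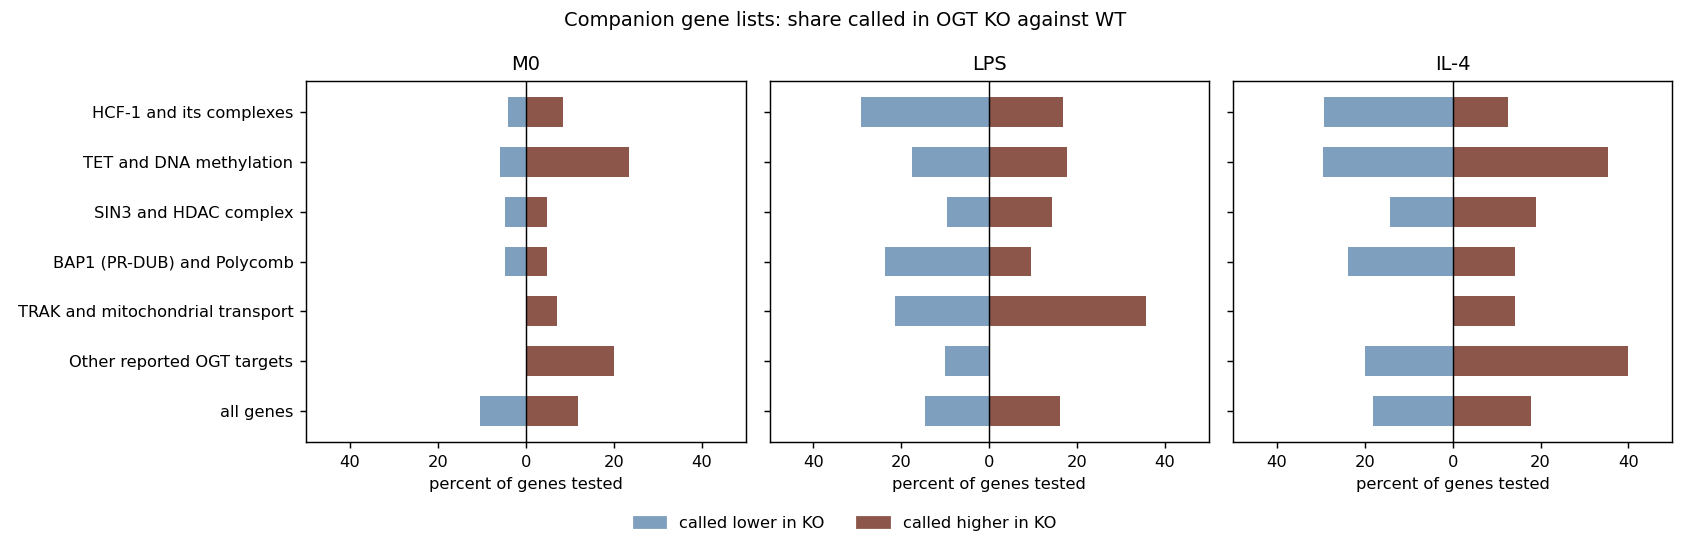
Percent of the tested genes of each partner list called higher (right) and lower (left) in KO than in WT at M0, with LPS and with IL-4, with all 14693 genes in the bottom row. The bars of every list lie on both sides of 0 or are empty on one, and with lists of 10 to 24 genes each gene moves a bar by several percent.

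Stimulation also moved partners in both directions, beside 67.3% of all genes called with LPS in KO and 57.7% in WT, and 51.3% with IL-4 in KO and 60.1% in WT; no list was tested against these shares. Of 24 HCF-1 partners, LPS against M0 called 4 higher and 9 lower in KO and 7 higher and 6 lower in WT, and Kansl3 rose by 1.17 ± 0.068 in KO and 0.68 ± 0.075 in WT (adjusted p = 3.59e-14 and 1.91e-08). Creb3, an HCF-1-binding factor anchored in the endoplasmic reticulum, rose too (0.75 ± 0.06 in KO and 0.51 ± 0.065 in WT; adjusted p = 2.11e-11 and 1.89e-07). The rise of Kansl3 was larger in KO than in WT (interaction 0.49, adjusted p = 0.00234), a call lost without KO libraries 5 and 6 and with number pairs summed.

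In the TET and DNA methylation list LPS called 4 higher and 12 lower of 17 in KO and 4 higher and 10 lower in WT, with medians of -0.34 and -0.37. Gadd45b rose by 2.18 ± 0.097 in KO and 2.24 ± 0.10 in WT (adjusted p = 9.43e-17 and 3.46e-16), while Idh1, which makes a cosubstrate of TET enzymes, changed by -1.33 ± 0.084 in KO and -1.45 ± 0.096 in WT (adjusted p = 2.06e-13 and 6.8e-13). IL-4 called 8 higher and 1 lower in KO and 9 higher and 4 lower in WT. Dnmt3a, the de novo methyltransferase, rose with IL-4 by 0.90 ± 0.062 in KO and 0.88 ± 0.063 in WT (adjusted p = 6.11e-12 and 7.68e-12), Apex1, a base excision repair enzyme, by 0.84 ± 0.078 in KO (adjusted p = 1.69e-09), and Uhrf1 by 1.06 ± 0.069 in WT (adjusted p = 1.19e-12). The IL-4 response of Apex1 was not called different between genotypes.

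Among 21 SIN3 and HDAC genes LPS called 7 higher and 7 lower in KO and 6 higher and 7 lower in WT. Sap30 rose by 1.77 ± 0.086 in KO and 1.67 ± 0.092 in WT (adjusted p = 6.05e-16 and 1.66e-14), Hdac1 rose by 1.01 ± 0.069 in KO (adjusted p = 9.12e-13), and Rbbp7 fell by 0.76 ± 0.063 in WT (adjusted p = 7.2e-11). Hdac1 and Rbbp7 are given in 1 genotype by the rule for naming genes, and neither LPS response was called different between genotypes. IL-4 called 4 higher and 4 lower in KO and 5 and 4 in WT, and Kdm5b, an H3K4 demethylase, fell (-0.59 ± 0.11 in KO and -0.85 ± 0.12 in WT; adjusted p = 0.000123 and 6.27e-07).

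Among 21 BAP1 and Polycomb genes LPS called 3 higher and 8 lower in KO and 5 and 6 in WT. Within Polycomb repressive complex PRC2, Eed rose (0.61 ± 0.06 in KO and 0.56 ± 0.066 in WT; adjusted p = 1.24e-09 and 4.91e-08) and Ezh2 fell (-0.65 ± 0.085 in KO and -0.63 ± 0.097 in WT; adjusted p = 1.85e-07 and 3.48e-06). With IL-4, 6 were higher and 5 lower in KO and 6 and 7 in WT, and L3mbtl2 rose by 0.52 ± 0.073 in KO and 0.64 ± 0.072 in WT (adjusted p = 1.61e-06 and 3.02e-08).

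Among 14 mitochondrial transport genes LPS called 2 higher and 6 lower in KO and 3 and 4 in WT, and IL-4 5 and 4 in KO and 6 and 4 in WT. Fhl2, which encodes a LIM-domain protein, fell with LPS (-0.67 ± 0.065 in KO and -1.06 ± 0.075 in WT; adjusted p = 1.11e-09 and 3.12e-12), a smaller fall in KO by the interaction test (0.40, adjusted p = 0.00857; lost with number pairs summed and without WT LPS library 3), and it fell with IL-4 (-0.58 ± 0.059 in KO and -0.60 ± 0.059 in WT; adjusted p = 9.88e-09 and 3.36e-09). Among 10 other OGT targets LPS called 1 higher and 4 lower in KO and 2 and 3 in WT, with Nono rising (0.43 ± 0.049 in KO and 0.30 ± 0.052 in WT; adjusted p = 1.6e-08 and 2.03e-05) and Sirt1 falling (-0.57 ± 0.082 in KO and -0.45 ± 0.095 in WT; adjusted p = 9.66e-07 and 0.000226), the WT fall of Sirt1 being lost with DESeq2. IL-4 called 2 higher and 2 lower in KO and 2 and 4 in WT.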

How the data were processed

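Gene counts of 24 libraries of mouse macrophages were analysed. Per the submitters' processing notes, the authors aligned reads with TopHat2 2.1.0 to mm10 (GRCm38) and used HTSeq 0.9.1, and the deposited values are raw counts per gene symbol. The sources used here do not give the annotation, library kit or strand setting, and reads of overlapping or antisense genes could therefore not be separated. The 5 summary lines, 8.76% to 9.98% of each library, were left out. A count of 0 allows 3 counts, which is 0.0303 to 0.055 CPM at the depth of the 21 deep libraries but 15.5 to 17.9 CPM at that of the 3 shallow ones, for counting error alone.

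The fit used edgeR 4.0.16 (R 4.3.3) with TMM factors, filterByExpr by group, 1 coefficient per group over all 24 libraries, 18 residual degrees of freedom and the quasi-likelihood test of 9 contrasts across all 14693 genes kept. An SE is the log2 fold change divided by the square root of its F statistic. CPM use effective library sizes. The alternatives were RLE factors, DESeq2 1.42.0, no filter, a replicate block, number pairs summed, and libraries left out singly, as the shallow 3 or as KO pairs.

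The members and gene lists were chosen with earlier results of these data known. The text names all members, Ogt and Mgea5, in each list up to 2 called genes per contrast with the smallest adjusted p for KO against WT and for stimulation, and the 3 genes most like each member (log2 CPM with a prior count of 2), of which 2 are not reported here. Not every gene so chosen from the stimulation contrasts is printed, and interactions of listed genes were chosen after their values were seen. Libraries with the same label number deviated together from their group means in KO (correlation over genes 0.342 to 0.635 in every pair of deep libraries) but not throughout in WT (-0.105 to 0.61). Different numbers within the sets 5 and 6 or 7 and 8 correlated as highly in KO (0.328 to 0.625), so the check shows 2 sets and does not single out the number; the block is an alternative only.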

Additional observations from a re-analysis of the deposited data

Results flagged for a closer look

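In 48 groups of 4 libraries (8 members in 6 groups) the highest or lowest library was compared with the nearest other, and 7 stood apart by Dixon's criterion. Chance flags about 1 in 20 groups. Of the 7, 3 are KO LPS library 7, which is shallow: Bap1 at 144 CPM on 24 counts (next 81.6 CPM), Sin3a at 53.8 CPM on 9 counts (next 39.9 CPM) and Asxl1 at 0 CPM on 0 counts (next 37.4 CPM). KO library 8 stood apart as the lowest for Tet3 with LPS, at 60.6 CPM (next 71.8 CPM), and for Sin3a at M0, at 36.7 CPM (next 40 CPM). Asxl1 was highest in KO M0 library 6, at 58.7 CPM (next 55.4 CPM), and Bap1 in WT M0 library 3, at 76.9 CPM (next 68.3 CPM). The part of depth in these values was not tested.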

How the results depend on the processing

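No member's called value changed sign under any alternative. The number of genes called fell with DESeq2 and with number pairs summed: KO against WT at M0 gave 3279 in the main analysis, 1438 with DESeq2 and 557 with pairs; LPS gave 4534, 2663 and 2088, and 2999 to 4674 with 1 library left out; IL-4 gave 5307, 2791 and 1830; IL-4 against M0 in KO gave 7534, 4842 and 4719. Fewer samples enter the pairs, which also join WT libraries 1 and 2 and WT libraries 3 and 4. WT LPS libraries 1 and 2, both shallow, thus form 1 sample. The chi-square per degree of freedom did not show these pairs in WT at M0 (32.2 for libraries 1 and 2, 26.8 for 3 and 4, and 12.1 for 1 and 4). The causes of the lower numbers with pairs and with DESeq2 were not tested.

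The genes called for the interaction with LPS were 1676, 858 with DESeq2, 65 with pairs and 942 to 1992 with 1 library left out. For the interaction with IL-4 they were 167, 82 with DESeq2, 0 with pairs, 259 without the shallow libraries, 677 without KO libraries 5 and 6, 105 without 7 and 8, and 60 to 360 with 1 library left out. With the replicate block the interactions called 2987 genes for LPS and 1118 for IL-4. The members then called were 1 higher (Tet2) and 1 lower (Hcfc1) for LPS, and 2 lower for IL-4 against M0 in WT. It also called Tet3 higher for LPS against M0 in both genotypes and Hcfc1 higher for IL-4 against M0 in WT, and changed no other member's call. KO and WT share no label numbers, so no paired analysis was possible for KO against WT.

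Counts of members moved as follows, each from the main count. KO against WT at M0, 1 higher and 1 lower, became 2 and 2 without KO libraries 5 and 6, and 0 lower with DESeq2 or pairs. With LPS, 2 higher became 1 with DESeq2, without filtering or without KO libraries 5 and 6, 0 with pairs and 0 to 2 with 1 library left out, and 0 lower became 1 without the shallow libraries or KO libraries 5 and 6. With IL-4, 2 higher became 1 with DESeq2 or pairs and 1 to 3 with 1 library left out, and 1 lower became 0 with pairs. LPS against M0 in KO, 2 higher and 3 lower, became 1 higher with DESeq2, 1 lower without KO libraries 5 and 6 or with pairs, and 1 to 3 higher and 1 to 4 lower with 1 library left out. In WT, 2 higher and 1 lower became 1 higher with DESeq2, 2 lower with RLE factors, and 1 to 2 of each with 1 library left out. IL-4 against M0 in KO, 3 lower, became 0 with DESeq2 and 1 without filtering, without KO libraries 5 and 6 or with pairs. In WT, 1 lower became 3 with RLE factors, 2 without the shallow libraries and 1 to 3 with 1 library left out. The LPS interaction, 0 lower, became 1 without the shallow libraries and 0 to 1 with 1 library left out. The causes were not tested.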
